A study of Mus musculus with 16 samples.

Results

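The genes described here encode 3 NFAT factors, the 5 members of the Rel/NF-kB family and the inhibitor IkB-alpha. They are Nfatc1, Nfatc2, Nfatc3, Nfkb1, Nfkb2, Rel, Rela, Relb and Nfkbia, 9 of the 20722 protein-coding genes with a protein-coding transcript on chromosomes 1 to 19. The genes were picked by name, as factors that act behind the T cell receptor. Each gene was taken with 30 kb on either side (mm10, GENCODE M21), and these windows hold 278 of the 185978 merged regions of the genome. A merged region is a stretch covered by overlapping peaks of 1 or more of the 4 stages.

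ATAC-seq, in which a transposase cuts accessible DNA, was done on thymocytes of wild type C57BL/6J mice that were 9 weeks old. Lineage-negative cells were sorted from 4 mice (Mouse4144, Mouse300, Mouse4220 and Mouse302) at 4 stages, which gives 16 libraries. Double negative cells (DN) were CD4- CD8- CD3- and are a mix of the early stages, and double positive cells (DP) were CD4+ CD8+. Single positive cells were CD4+ CD8- CD3+ (SP4) or CD4- CD8+ CD3+ (SP8). The lineage cocktail held antibodies to TER119, B220, Mac1, Gr1, CD11c, NK1.1 and gdTCR, among others. The authors called peaks once per stage on the pooled reads of the 4 mice, so there is 1 list per stage, no replicate and no spread between mice. The DN, DP, SP4 and SP8 lists hold 150139, 107110, 115074 and 104411 peaks. The DN list is the longest, which bears on every count of regions lost after DN. The lists do not state the read depth behind them.

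A region is called at a stage where the list of that stage has a peak in it, and a region that is not called may hold signal under the threshold. The height of a region is given as a percentile, the percent of peaks in the list of the same stage with a lower fold enrichment at the summit. Values for the 4 stages are listed in the order DN, DP, SP4 and SP8. A promoter region shares at least 1 bp with the window from 250 bp before to 50 bp after the start of a protein-coding transcript. Positions in kb are counted from the outermost annotated start of the gene in the direction of transcription.

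NFAT proteins wait in the cytoplasm in phosphorylated form until calcium entry after receptor signalling activates the phosphatase calcineurin, which lets them move to the nucleus. Rel/NF-kB proteins form dimers that IkB proteins hold in the cytoplasm until IkB kinase marks the inhibitor for breakdown. Both routes are used in thymocytes when the pre-T cell receptor and later the mature receptor signal, at the steps from DN to DP and from DP to the single positive stages.

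Of the promoters with a match to the 10-base NF-kB consensus, 4 are shown first, because these genes encode the factors, or the inhibitor of the factors, that bind this site. The sequences come from a table of RefSeq promoters (GRCm38.p6, the assembly of mm10) and run 5′ to 3′ on the strand of the gene. They are Rel on the minus strand (chr11:23770920-23771219), Nfkbia on the minus strand (chr12:55492598-55492897), and the first and second start of Nfkb2 on the plus strand (chr19:46304487-46304786 and chr19:46305445-46305744). Capitals mark exact matches to any of the 8 motifs searched. Of these, NF-kB matches lie in all 4 promoters, NFAT (TGGAAA or its complement TTTCCA) in Nfkbia and at the second start of Nfkb2, and AP-1 (TGAATCA) at the second start of Nfkb2.
Rel promoter: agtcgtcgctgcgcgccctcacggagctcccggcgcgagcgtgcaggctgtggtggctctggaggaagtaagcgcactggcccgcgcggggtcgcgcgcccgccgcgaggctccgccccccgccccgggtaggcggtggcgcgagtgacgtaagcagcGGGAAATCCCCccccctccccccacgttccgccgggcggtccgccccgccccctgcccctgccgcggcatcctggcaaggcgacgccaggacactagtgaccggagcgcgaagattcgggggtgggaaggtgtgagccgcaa
Nfkbia promoter: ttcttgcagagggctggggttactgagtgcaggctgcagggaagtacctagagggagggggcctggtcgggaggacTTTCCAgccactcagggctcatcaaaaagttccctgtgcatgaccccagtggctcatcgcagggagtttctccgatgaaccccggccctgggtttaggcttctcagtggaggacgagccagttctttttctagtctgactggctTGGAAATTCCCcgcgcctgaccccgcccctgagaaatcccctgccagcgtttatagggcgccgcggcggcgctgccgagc
Nfkb2 first start: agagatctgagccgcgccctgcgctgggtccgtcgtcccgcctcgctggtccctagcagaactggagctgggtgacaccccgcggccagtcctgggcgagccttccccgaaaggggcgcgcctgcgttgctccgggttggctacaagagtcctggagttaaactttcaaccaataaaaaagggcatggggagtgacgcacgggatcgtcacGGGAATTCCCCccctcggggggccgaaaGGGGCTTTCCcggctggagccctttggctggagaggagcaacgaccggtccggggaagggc
Nfkb2 second start: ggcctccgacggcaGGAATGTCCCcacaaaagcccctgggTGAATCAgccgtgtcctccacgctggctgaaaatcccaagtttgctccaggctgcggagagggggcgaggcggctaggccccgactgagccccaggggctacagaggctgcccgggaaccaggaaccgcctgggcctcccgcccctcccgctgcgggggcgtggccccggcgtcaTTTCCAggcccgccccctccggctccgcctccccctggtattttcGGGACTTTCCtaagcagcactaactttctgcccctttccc

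The next windows, of 200 bases each, lie on the plus strand of mm10 and are centred on the highest summit of their region. For 7 genes the region is the highest of those called at 1 to 3 stages, because these regions carry the differences between stages. An 8th window lies in an intron of Nfatc3, 53.9 kb into the gene, in a region called at all 4 stages that was chosen after its values were seen. The windows are Nfatc2 11.6 kb upstream (chr2:168613145-168613344, between genes), Nfatc3 at 45.2 kb (chr8:106103939-106104138, an exon and its intron), Nfatc3 at 53.9 kb (chr8:106112614-106112813) and Nfkb1 at 15.9 kb (chr3:135675567-135675766, intron). The others are Rel at 1.21 kb (chr11:23769663-23769862, intron), Rela 5.21 kb upstream (chr19:5632177-5632376, between genes), Relb 22.1 kb upstream (chr7:19651464-19651663, an intron of Clptm1) and Nfkbia 25.5 kb upstream (chr12:55518040-55518239, between genes). Capitals mark E-box (CAGCTG), RUNX (TGTGGTT or its complement AACCACA), the GATA motif (AGATAA or its complement TTATCT) and NFAT (TGGAAA) matches. The windows of Nfkb1 and Relb have no match to any of the 8 motifs, and none of the 8 windows has an NF-kB match.
Nfatc2 upstream: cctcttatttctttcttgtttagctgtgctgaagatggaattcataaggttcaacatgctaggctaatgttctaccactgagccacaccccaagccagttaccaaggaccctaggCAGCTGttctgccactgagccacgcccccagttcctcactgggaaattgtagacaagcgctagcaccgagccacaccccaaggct
Nfatc3 exon: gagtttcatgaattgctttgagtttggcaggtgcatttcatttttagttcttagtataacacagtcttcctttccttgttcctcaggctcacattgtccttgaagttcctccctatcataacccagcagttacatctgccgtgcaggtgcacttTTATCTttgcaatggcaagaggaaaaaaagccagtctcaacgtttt
Nfatc3 intron: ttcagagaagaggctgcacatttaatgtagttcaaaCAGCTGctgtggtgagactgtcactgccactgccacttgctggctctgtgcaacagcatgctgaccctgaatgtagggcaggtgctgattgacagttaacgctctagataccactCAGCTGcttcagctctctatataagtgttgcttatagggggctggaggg
Nfkb1 intron: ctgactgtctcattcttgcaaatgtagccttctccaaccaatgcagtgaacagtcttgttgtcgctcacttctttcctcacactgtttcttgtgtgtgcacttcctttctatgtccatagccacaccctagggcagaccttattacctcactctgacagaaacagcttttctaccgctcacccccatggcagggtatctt
Rel intron: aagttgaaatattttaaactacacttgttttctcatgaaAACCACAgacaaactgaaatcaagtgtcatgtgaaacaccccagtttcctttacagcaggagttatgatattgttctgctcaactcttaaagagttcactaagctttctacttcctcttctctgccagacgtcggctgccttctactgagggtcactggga
Rela upstream: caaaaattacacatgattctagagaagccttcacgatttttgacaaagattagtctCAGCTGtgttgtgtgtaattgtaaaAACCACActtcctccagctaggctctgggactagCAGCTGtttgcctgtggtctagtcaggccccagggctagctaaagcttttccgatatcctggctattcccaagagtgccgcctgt
Relb upstream: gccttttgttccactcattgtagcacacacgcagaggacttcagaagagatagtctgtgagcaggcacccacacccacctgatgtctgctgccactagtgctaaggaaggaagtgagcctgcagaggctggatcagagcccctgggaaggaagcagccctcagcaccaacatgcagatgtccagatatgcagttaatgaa
Nfkbia upstream: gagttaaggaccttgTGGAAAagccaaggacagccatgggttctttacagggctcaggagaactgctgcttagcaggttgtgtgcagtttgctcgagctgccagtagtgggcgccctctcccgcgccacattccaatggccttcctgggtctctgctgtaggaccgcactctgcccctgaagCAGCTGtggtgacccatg

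The first question was how many accessible regions the 9 genes had and at which stages they were called. The windows held 239 peaks at DN, then 198, 188 and 182 at DP, SP4 and SP8, in 220, 185, 175 and 169 regions. In lists cut to the length of the shortest, they held 173, 195, 169 and 182 peaks, so the excess at DN rested on the longer DN list. Of the 278 regions, 142 touched a gene body, and 10 held the promoter of a neighbouring gene. Regions in the flanks may belong to such neighbours. The density was 33.6 regions per 100 kb at Nfatc1, 33.2 at Nfkbia, 31.1 at Nfatc3, 30.9 at Nfkb2, 29.2 at Nfatc2 and 27.6 at Nfkb1, against a median of 13.9 over all 20807 protein-coding gene models. It was 19.8 at Rela, 16.8 at Relb and 11.7 at Rel. The first 6 genes were denser than at least 88.1% of these models, while Rel was denser than only 43.0%.

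Of the 278 regions, 116 were called at all 4 stages (41.7%, 95% Wilson interval 36.1 to 47.6), against 34.1% of all merged regions. The Wilson intervals given here cover counting error only, and neighbouring regions are not independent. At DN alone 42 were called (15.1%, against 21.7% of all regions), at DP alone 18 (6.47%, against 5.17%), at SP4 alone 14 (5.04%, against 7.39%) and at SP8 alone 8 (2.88%, against 4.21%). Together with the 18 of DP alone, 33 were called at DP and at neither single positive stage (11.9%, against 10.8%), and 18 at both single positive stages and not at DP (6.47%, against 7.87%). The 9 genes together therefore had a larger share of regions of all stages and a smaller one of DN alone than the genome, and their other shares lay within a few percentage points of it. Both differences were smaller in lists of equal length, with 41.2% against 36.8% for all stages, where the interval holds the genome share, and 6.996% against 11.1% for DN alone.

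**Figure D1:**
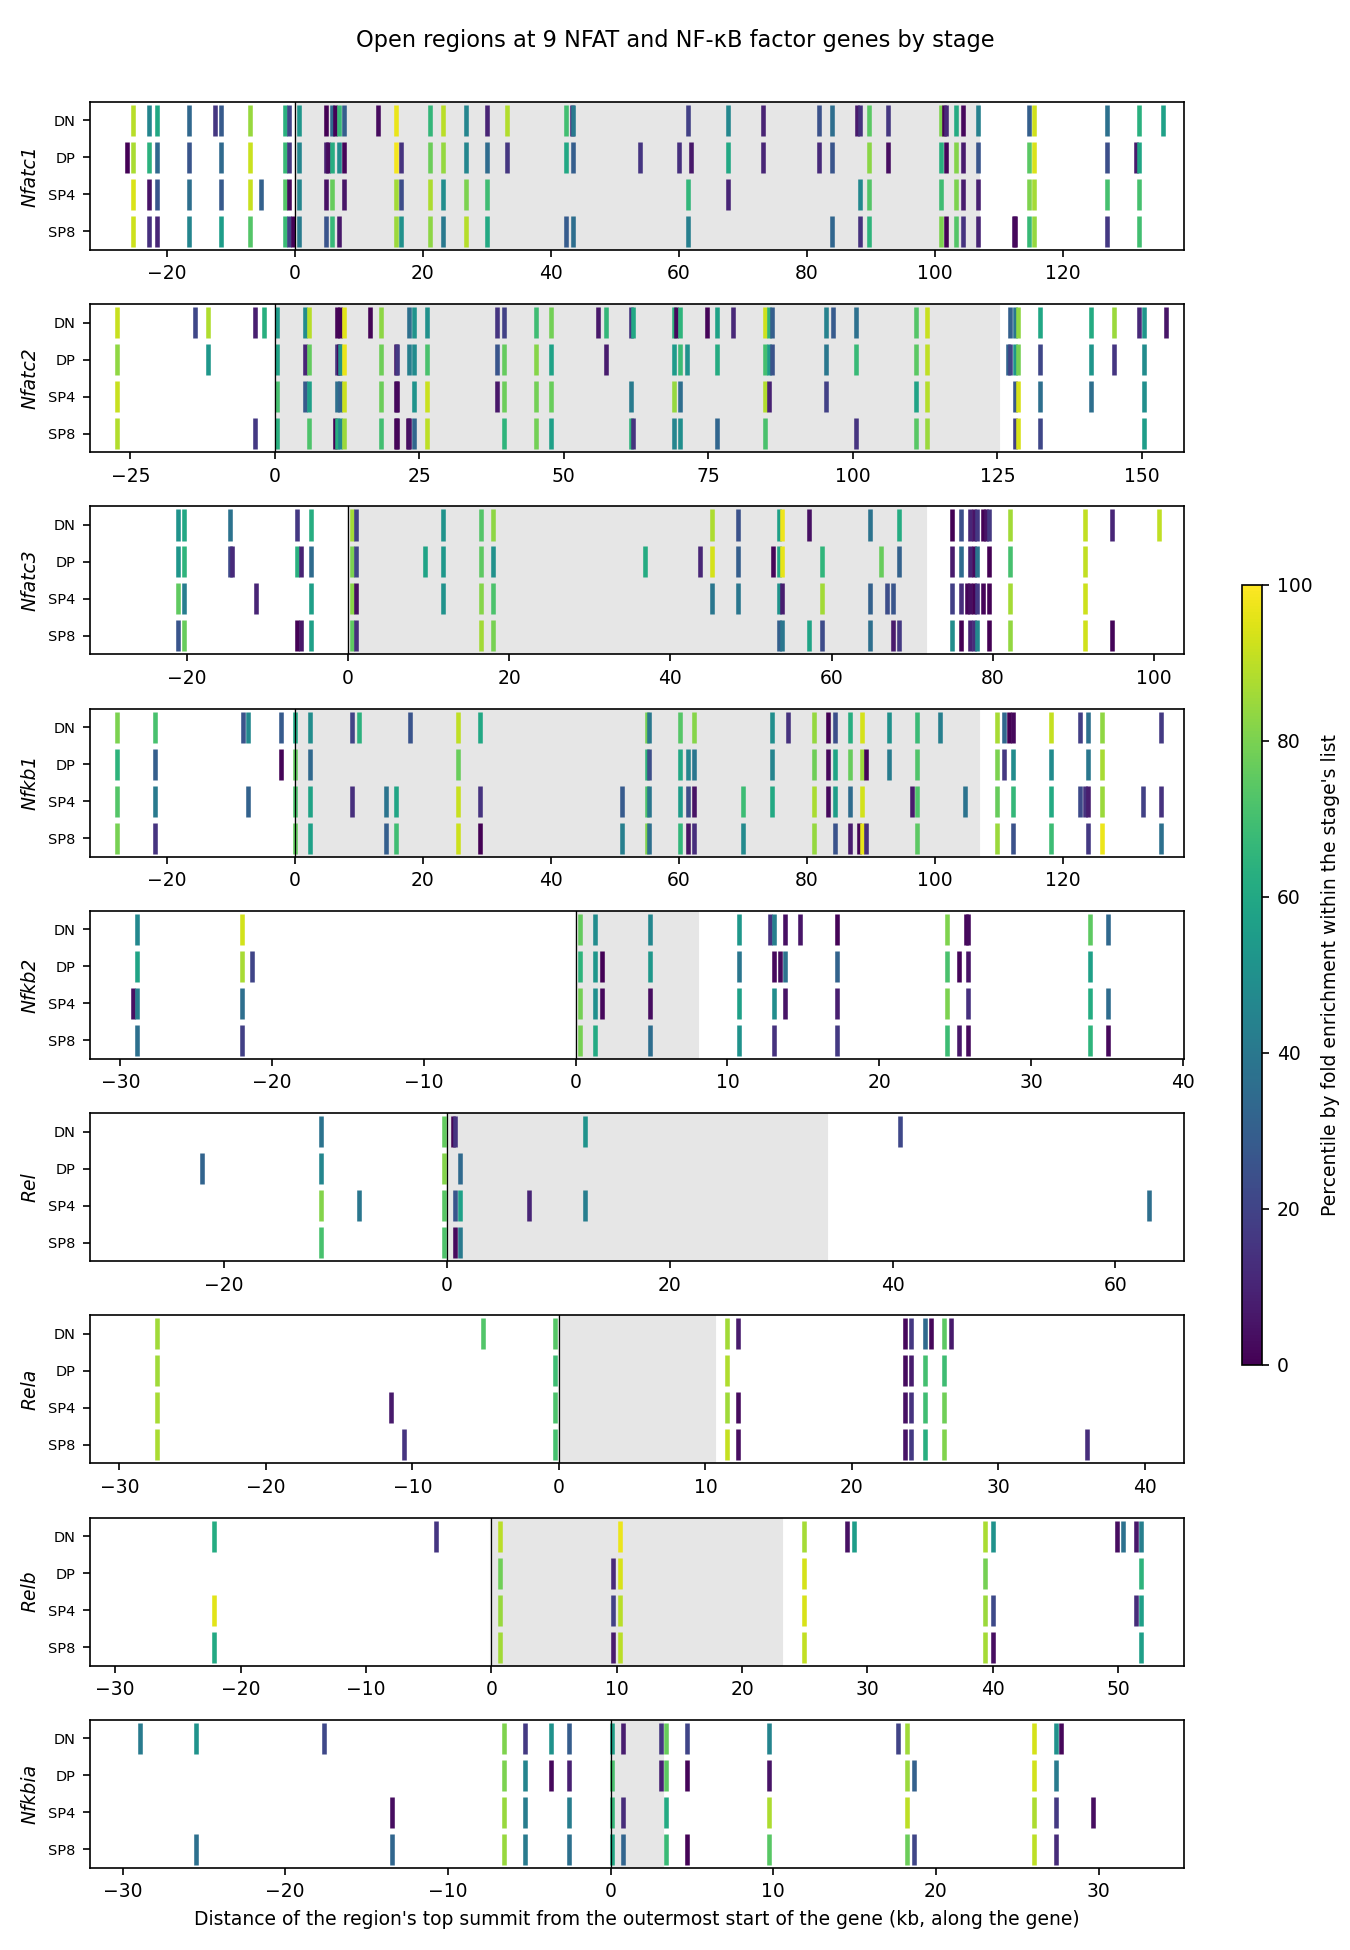
Regions of the 9 genes by distance from the outermost start in kb (horizontal), with 1 lane per stage and the percentile of fold enrichment as colour. Nfatc1 has 56 regions, 36 of them touching the gene body, and Nfatc2 54, with 39 at the gene body, while Rel has 11 regions in all.

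**Figure D2:**
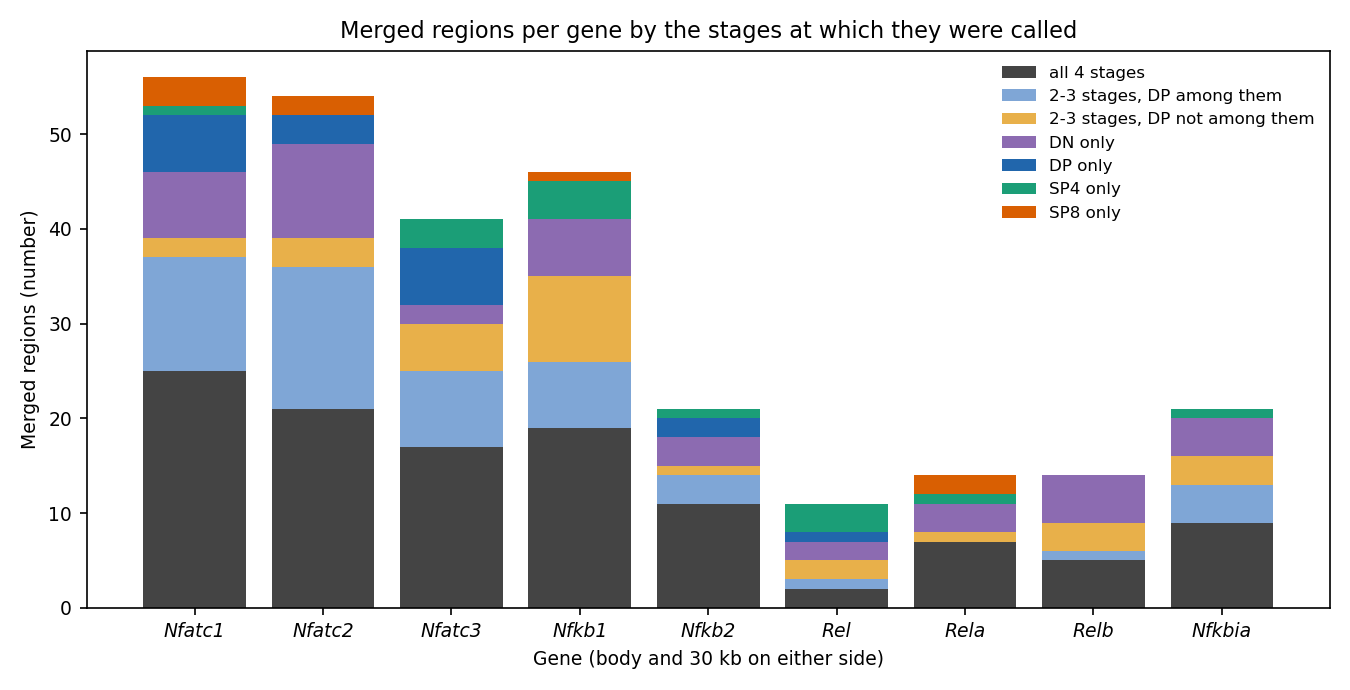
Number of regions of each gene (bar length) by the set of stages at which they are called (colour). Regions of DP alone are found at Nfatc1 (6), Nfatc3 (6), Nfatc2 (3), Nfkb2 (2) and Rel (1), and at none of the other 4 genes.

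Among the NFAT factors, Nfatc1 (chr18:80606205-80713071, minus strand), which encodes NFATc1, had 56 regions, 25 of them called at all 4 stages. Its window held 48, 44, 35 and 38 peaks at DN, DP, SP4 and SP8, with 7, 6, 1 and 3 regions called at that stage alone. The gene lost peaks from DP to the single positive stages. Its outer promoter region (chr18:80713216-80713398) was called at SP8 alone, at percentile 0.529, and its inner one at 4.82 kb (chr18:80708058-80708701) at all 4 stages, at 0.292, 8.69, 3.92 and 26.1. Both were among the lowest promoter regions of the 9 genes, and the inner one was highest at SP8. The strongest region outside the promoters, in an intron at 15.8 kb (chr18:80696909-80697718), reached 96.6, 98.2, 86.2 and 84.8. The strongest of those called at 1 to 3 stages, in an intron at 33.1 kb (chr18:80679670-80680176), stood at 88.5 at DN and 16 at DP and was not called later. A pair of intron regions chosen after their values were seen moved in opposite directions. The region at 23.1 kb (chr18:80689437-80690222) fell (89.8, 84.3, 48.7 and 40.5) and the one at 26.7 kb (chr18:80685999-80686739) rose (45.6, 45.7, 80.3 and 88.9). Of the 28 regions of Nfatc1 called at both DP and SP4, 3 were higher at SP4 by at least 20 points and 3 lower (10.7% each, against 14.7% and 13.3% of all regions), so most shared regions shifted less than this pair.

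Nfatc2 (chr2:168476410-168601657, minus strand) encodes NFATc2 and had 54 regions, 21 of them called at all 4 stages. Peaks numbered 49 at DN, then 41, 31 and 34 at DP, SP4 and SP8, and 10, 3, 0 and 2 regions were called at that stage alone. Fewer peaks were thus found at SP4 and SP8 than at DP. The promoter region at the outer start (chr2:168601166-168601790) stood at 54.4, 57.9, 70.6 and 63.5. At the inner start, 1 region (chr2:168590179-168590481) stood at 0.559, 50, 32.4 and 47.1, and its neighbour (chr2:168590483-168590607) was called at DP alone, at 0.424. The inner promoter was thus among the lowest peaks by fold enrichment at DN and near the middle of the list at DP, while the outer one changed little between these stages. An intron region at 11.9 kb (chr2:168589119-168590087), the strongest outside the promoters, reached 95.7, 96.6, 92.1 and 85.1. The region 11.6 kb upstream (chr2:168613150-168613393), whose window is printed above with its E-box match, stood at 88.1 at DN and 53.1 at DP and was not called at SP4 or SP8. In the opposite direction, a region at 26.4 kb (chr2:168574882-168575440) rose (50.2, 71.4, 91.8 and 89.9), and one at 39.7 kb (chr2:168561838-168562549) rose from 19.3 at DN to 76.2, 77.5 and 65.0. Both of these were chosen after their values were seen. Nfatc2 therefore kept a strong intron region at every stage, lost an upstream region after DP and had intron regions that became stronger after DN.

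Nfatc3 (chr8:106058840-106130537, plus strand) encodes NFATc3. It had 41 regions, 17 of them called at all 4 stages, with 29, 32, 27 and 26 peaks at DN, DP, SP4 and SP8. Regions called at a single stage numbered 2 at DN, then 6, 3 and 0 at DP, SP4 and SP8. The promoter region (chr8:106058637-106059675) was high throughout, at 86.0, 79.9, 82.4 and 75.0. The strongest region outside the promoters (chr8:106150110-106150794) stood at 90.8, 90.7, 92.5 and 92.7, but lay at the promoter of Pla2g15, 91.5 kb from the Nfatc3 start. The promoter of Nfatc3 and this neighbouring region changed little between stages. The exon region at 45.2 kb (chr8:106103909-106104199), printed above with its GATA match, stood at 87.6, 93.5 and 39.4 and was not called at SP8. The intron region at 53.9 kb (chr8:106112462-106112944), printed above with a pair of E-box matches, stood at 97.5, 96.2, 8.13 and 39.1, with fold enrichments of 24.1, 22.3, 3.12 and 5.02. A region at 66.2 kb (chr8:106124847-106125191), also chosen after its values were seen, was called at DP alone, at 76.9. Other regions inside the gene were higher after DP, such as the intron region at 16.5 kb (chr8:106075261-106075766; 73.3, 75.1, 81.9 and 86.3), also chosen after its values were seen. Of the 21 regions called at both DP and SP4, 4 were higher at SP4 by at least 20 points (19%, against 14.7% of all regions) and 5 lower (23.8%, against 13.3%), counts whose intervals hold the shares over all regions. Its promoter stayed at 75.0 or above.

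Nfkb1 (chr3:135584655-135691547, minus strand), which encodes p105 and the subunit p50 made from it, had the most regions of the Rel/NF-kB family. It had 46 regions, 19 of them called at all 4 stages, with 41, 32, 40 and 32 peaks at DN, DP, SP4 and SP8. Regions called at a single stage numbered 6 at DN, then 0, 4 and 1 at DP, SP4 and SP8. Unlike the NFAT genes, Nfkb1 had more peaks at SP4 than at DP, but in lists of equal length only 33 against 31. The main promoter region (chr3:135690774-135691791) stood at 59.8, 76.2, 71.5 and 76.0. A small region at an inner start (chr3:135608146-135608368) stood at 0.147, 2.23 and 2.43 and was not called at SP8. The promoter of Nfkb1 was higher at each later stage than at DN. An exon region at 88.6 kb (chr3:135602796-135603225) was the strongest elsewhere, at 93.5, 85.4, 93.0 and 96.2. The intron region at 15.9 kb (chr3:135675569-135675769), printed above, was called only at SP4 (58.9) and SP8 (69.4). It was 1 of 4 regions of Nfkb1 called at both single positive stages and nowhere else, a class with 3.82% of all merged regions. With regions also called at DN, 6 of 46 were called at both single positive stages and not at DP. The Wilson interval of this share (6.12% to 25.7%) held that of all regions (7.87%). Of the 4, the region at 70.1 kb (chr3:135621315-135621655) reached 68.4 at SP4 and 47.5 at SP8. By contrast, a region at 62.4 kb (chr3:135628687-135629311) fell (81.8, 39.2, 4.92 and 13.2). The regions at 70.1 and 62.4 kb were chosen after their values were seen. Nfkb1 therefore had regions called only in single positive cells beside 1, at 62.4 kb, that was highest at DN. Of its 24 regions called at both DN and DP, 4 were lower at DP by at least 20 points (16.7%, against 20.5% of all regions). Another 2 were higher (8.33%, against 7.88%).

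Nfkb2 (chr19:46304320-46312385, plus strand) encodes p100 and its product p52, and had 21 regions, 11 of them called at all 4 stages. Its window held 19, 18, 15 and 13 peaks at DN, DP, SP4 and SP8, and 3, 2, 1 and 0 regions were called at that stage alone. Its count was lower at SP4 and SP8 than at DP. Its promoter regions, which covered starts printed above, stood at 76.4, 65.0, 79.0 and 79.7 (chr19:46304168-46305193) and at 48.3, 52.5, 49.4 and 60.9 (chr19:46305312-46305831). The strongest region outside them (chr19:46327990-46329359; 80.7, 71.2, 80.5 and 68.5) lay at the promoter of Fbxl15, and the strongest of those called at 1 to 3 stages (chr19:46317997-46318117; 4.29, 38.3 and 5.23, not called at SP8) at the promoter of Psd. A region 22.0 kb upstream in Gbf1 (chr19:46282145-46282713), chosen after its values were seen, fell (93.2, 86.9, 36.3 and 19). The promoter regions of Nfkb2 thus stayed called throughout, and the largest change in its window lay inside a neighbouring gene.

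Rel (chr11:23736847-23770970, minus strand), which encodes c-Rel, had the fewest regions of the 9 genes. Of its 11 regions, 2 were called at all 4 stages, and its window held 7 peaks at DN, then 4, 8 and 5 at DP, SP4 and SP8. Regions called at a single stage numbered 2, 1, 3 and 0 at DN, DP, SP4 and SP8. The count was highest at SP4. The promoter region (chr11:23770535-23771984), which held the promoter sequence printed above, stood at 75.9, 81.5, 74.1 and 72.0. The only other region called at all 4 stages lay 11.3 kb upstream (chr11:23782085-23782361), at 37.9, 46.0, 81.4 and 70.7. An intron region at 1.21 kb (chr11:23769667-23770026), printed above with a RUNX match, was not called at DN and stood at 34.0, 56.7 and 40.9 at the later stages. Rel therefore combined a steady promoter with a nearby upstream region that was stronger at SP4 and SP8 than before.

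Rela (chr19:5637483-5648130, plus strand), which encodes p65, had 14 regions, 7 of them called at all 4 stages. Peaks numbered 14 at DN, then 8, 9 and 10 at DP, SP4 and SP8, with 3, 0, 1 and 2 regions called at that stage alone. The promoter region (chr19:5636793-5638109) stood at 73.6, 68.8, 71.6 and 70.6. A region at 11.5 kb, just downstream of the gene (chr19:5648590-5649582), stood at 86.2, 88.2, 85.6 and 91.3, and the region 5.21 kb upstream (chr19:5632143-5632370), printed above, was called at DN alone, at 72.7. Apart from the regions of DN alone, Rela was close to even across the stages.

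Relb (chr7:19606217-19629438, minus strand) encodes RelB and had 14 regions, 5 of them called at all 4 stages. Its window held 13, 6, 10 and 9 peaks at DN, DP, SP4 and SP8, and 5 regions were called at DN alone and 0 at each other stage alone. The promoter region (chr7:19628307-19629487) was the highest main promoter region of the 9 genes at every stage but DP, at 89.8, 78.2, 84.6 and 86.2. An intron region at 10.3 kb (chr7:19618938-19619368) stood at 96.9, 94.0, 89.4 and 89.6. The region 22.1 kb upstream (chr7:19651096-19651833), in an intron of Clptm1, was called at DN (61.7), SP4 (95.7) and SP8 (60.4) but not at DP, with fold enrichments of 7.10, 23.3 and 7.86. Relb was thus lowest at DP both in its peak count and at its promoter.

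**Figure D3:**
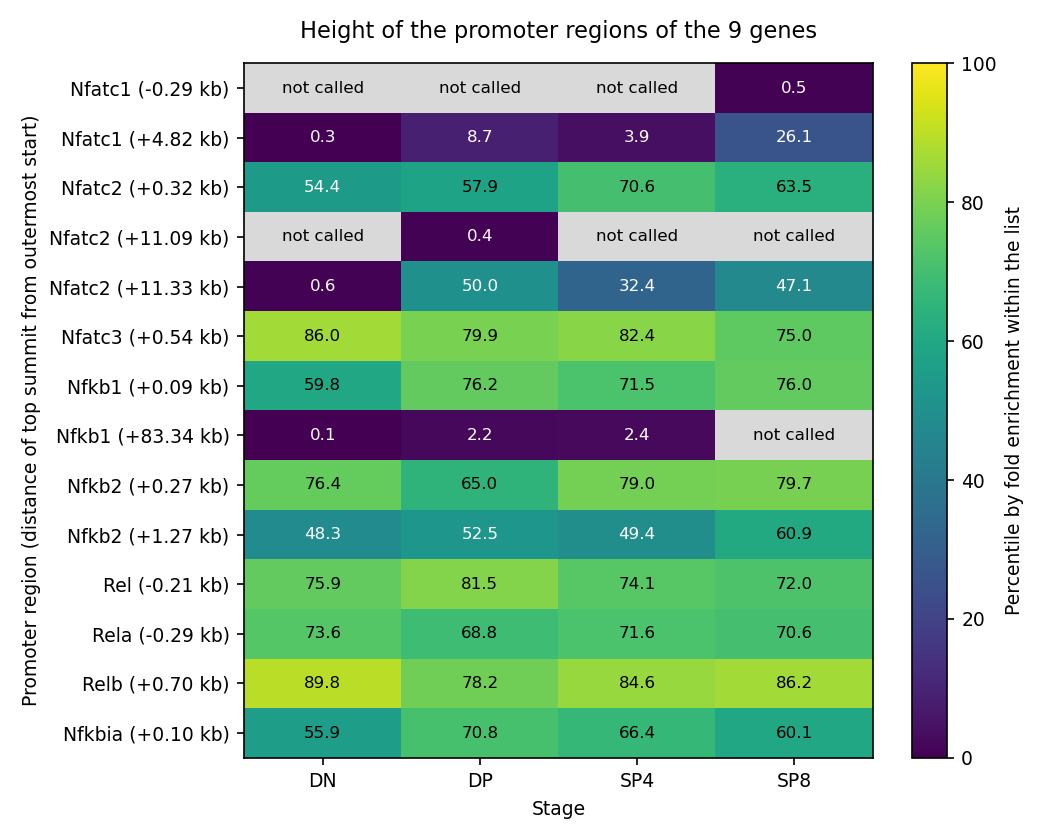
Percentile of fold enrichment (colour) of the 14 promoter regions of the 9 genes (lines) at the 4 stages (columns); blank fields are not called. Relb has the highest value (89.8 at DN), and the Nfatc1 regions are among the lowest.

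Nfkbia (chr12:55489410-55492647, minus strand) encodes IkB-alpha, the inhibitor that NF-kB itself induces, and had 21 regions, 9 of them called at all 4 stages. Its window held 19 peaks at DN, then 13, 13 and 15 at DP, SP4 and SP8, with 4, 0, 1 and 0 regions called at that stage alone. The promoter region (chr12:55492224-55492937) stood at 55.9, 70.8, 66.4 and 60.1. The promoter of the inhibitor was thus highest at DP by fold enrichment, while by −log10 q it was highest at SP4 (percentiles of 79.8, 89.8, 90.3 and 87.6). A region at 26 kb, downstream of the gene (chr12:55466286-55466954), was the strongest outside the promoter, at 93.7, 93.0, 87.7 and 90.1. The region 25.5 kb upstream (chr12:55518041-55518239), printed above with NFAT and E-box matches, was called at DN (51.3) and SP8 (36.4). A downstream region at 9.73 kb (chr12:55482744-55483274), chosen after its values were seen, stood at 45.3, 5.40, 87.7 and 74.2, with fold enrichments of 5.12, 2.84, 16.4 and 11.3. Nfkbia therefore had 1 downstream region that was steady and another that was lowest at DP and strong in single positive cells.

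**Figure D4:**
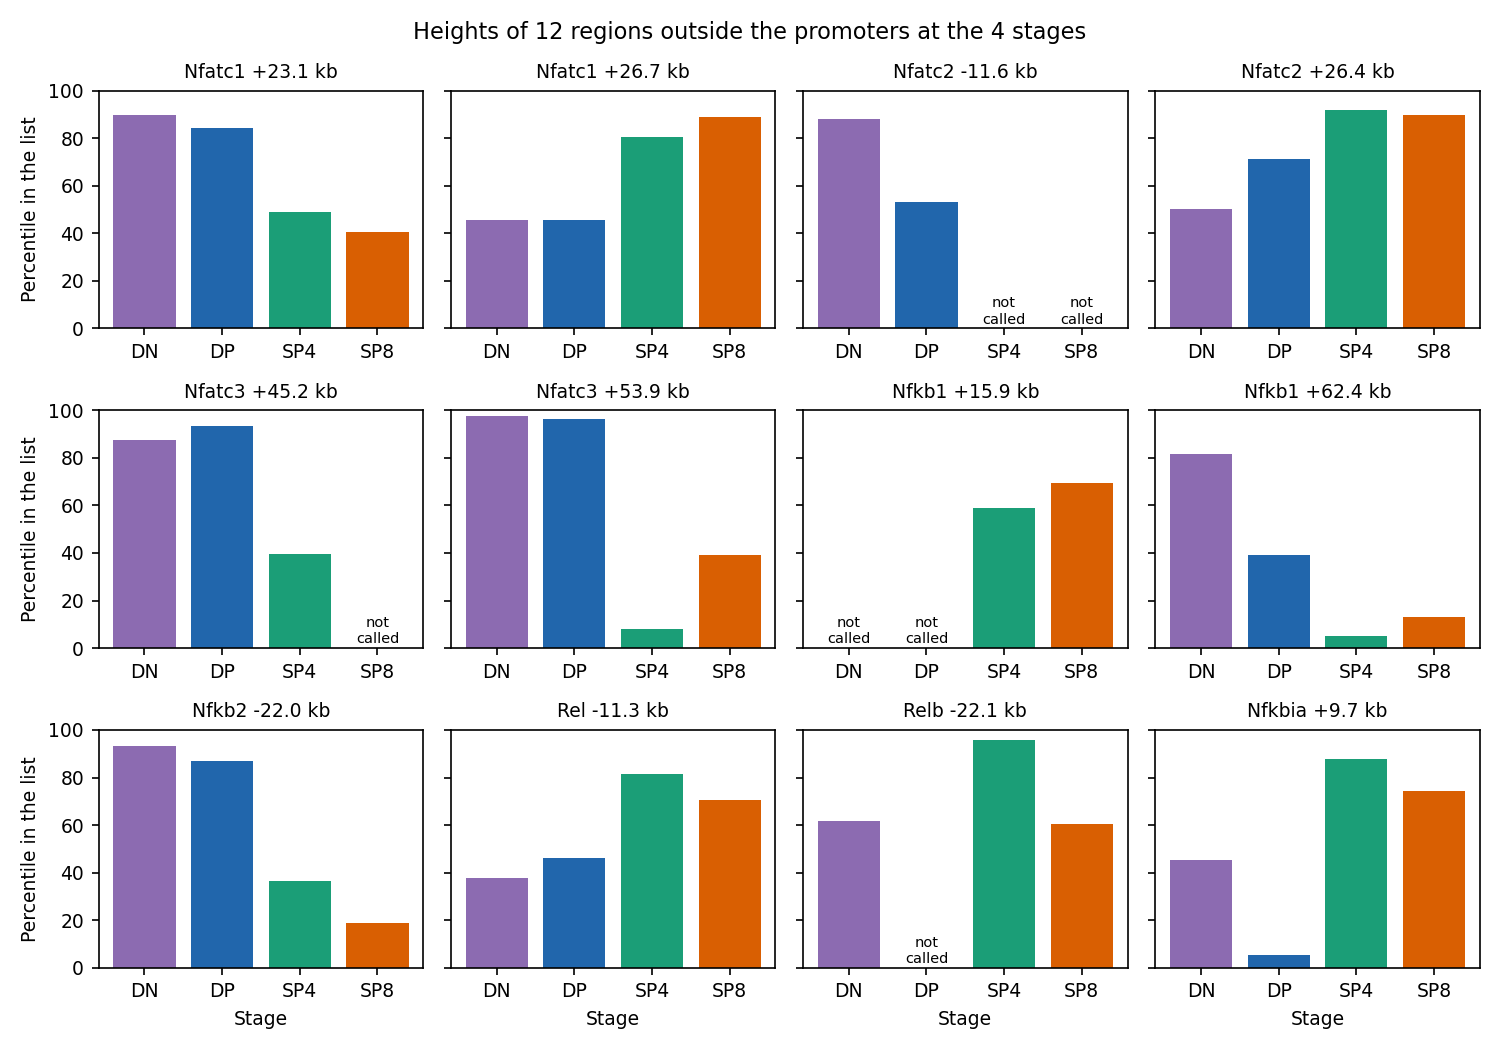
Percentile of fold enrichment (vertical) at the 4 stages (bars) for 12 regions away from the promoters. The region of Nfatc3 at 53.9 kb drops from 96.2 at DP to 8.13 at SP4, and that of Nfkbia at 9.73 kb rises from 5.40 to 87.7.

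All 9 genes had a promoter region called at all 4 stages, against 55.9% of protein-coding genes with a promoter peak at all 4 stages. The median percentile of the promoter regions called at all 4 stages was 59.8 at DN and 68.8, 71.5 and 70.6 at the later stages. The edge of the windows lay close to a few regions. Just inside it, 29139 bp from Nfkb2, a region (chr19:46275064-46275181) was called at SP4 alone, at 4.08. Just outside it, 30016 bp from Rel, a region (chr11:23800986-23801143) was called at DN (24.3) and SP4 (53.3) and was not counted.

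The next question was which regions were lost and gained at each step of development. From DN to DP, 65 of 220 regions were lost (29.5%, against 40.5% of all regions) and 30 of 185 were gained (16.2%, against 16.4%). Of the 155 called at both stages, 17 were higher at DP by at least 20 percentile points (11.0%, against 7.88%) and 20 were lower (12.9%, against 20.5%). In lists of equal length the balance turned, with 17.4% lost (against 27% of all regions), 26.9% gained (against 26.2%), 23.3% higher (against 18.3%) and 6.77% lower (against 12.2%). At either list length, smaller shares of the regions of the 9 genes were lost or weakened from DN to DP than over the genome, while the balance of losses and gains depended on the list length.

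From DP to SP4, 48 of 185 regions were lost (25.9%, against 25.4%) and 38 of 175 were gained (21.7%, against 31%), with 16 of 137 higher (11.7%, against 14.7%) and 21 lower (15.3%, against 13.3%). From DP to SP8, 47 of 185 were lost (25.4%, against 28.1%) and 31 of 169 gained (18.3%, against 26.8%), with 13 of 138 higher (9.42%, against 12.7%) and 24 lower (17.4%, against 14.3%). The 9 genes gained a smaller share of regions than the genome on leaving DP. Between SP4 and SP8, 34 of 175 regions were found at SP4 only (19.4%, against 25%) and 28 of 169 at SP8 only (16.6%, against 17.5%). Of 141 called at both, 12 were higher at SP8 (8.51%, against 8.15%) and 17 lower (12.1%, against 12.4%). The single positive stages therefore differed from each other less at these genes than each differed from DP, as they did over the genome.

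Behind these sums the 3 NFAT genes and the 5 Rel/NF-kB genes differed, a split that was described after the values were seen. The NFAT genes held 126, 117, 93 and 98 peaks at the 4 stages, and the Rel/NF-kB genes 94, 68, 82 and 69. In lists of equal length they held 92, 115, 85 and 98, and 65, 67, 72 and 69. At either list length the sum over the NFAT genes was thus lower at SP4 and SP8 than at DP and the sum over the Rel/NF-kB genes was not, although Nfkb2 alone had fewer peaks after DP. The lower DP than DN sum of the Rel/NF-kB genes was not seen in equal lists. Regions called at DP and at neither single positive stage numbered 25 of 151 at the NFAT genes (16.6%, 11.5 to 23.3) and 6 of 106 at the Rel/NF-kB genes (5.66%, 2.62 to 11.8), against 10.8% over the genome. Regions called at both single positive stages and not at DP numbered 5 (3.31%, 1.42 to 7.51) and 11 (10.4%, 5.89 to 17.6), against 7.87%. Of these, 4 and 7 were also called at DN. Nfkbia had 2 of its 21 regions in each class. The NFAT shares lay above the genome in the first class and below it in the second, but only narrowly. With 10 kb on either side or with peaks up to 200 bp apart merged both intervals held the genome share. With summits within 100 bp, the interval for the second class (4.64%, 2.26 to 9.26) also held the genome share (8.52%). In the main setting the intervals of the Rel/NF-kB genes held it in both classes. In lists of equal length their share called at DP and at neither single positive stage (5.62%, 2.42 to 12.5) lay just below the genome (12.8%).

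Counted by step, the NFAT genes lost 36 of 113 regions from DP to SP4 (31.9%, 24.0 to 40.9) and the Rel/NF-kB genes 8 of 59 (13.6%, 7.03 to 24.5). Gains ran the other way, with 10 of 87 (11.5%, 6.36 to 19.9) at the NFAT genes and 25 of 76 (32.9%, 23.4 to 44.1) at the Rel/NF-kB genes. The genome lost and gained 25.4% and 31%, so the NFAT genes were low in gains, and their interval lay below the genome share under every alternative setting tried. The losses of the Rel/NF-kB genes lay below the genome only narrowly, and with 10 kb on either side or summits within 100 bp their interval held the genome share. Their gains were near it. From DP to SP8 the losses were 35 of 113 (31.0%) and 10 of 59 (16.9%), against 28.1% over the genome, and the gains 14 of 92 (15.2%) and 14 of 63 (22.2%), against 26.8%. Where a stage counted only with a summit within 100 bp of the highest summit, the losses to SP8 were 34.9% and 29.3%, against 32.6%. The contrast at SP8 was thus smaller in the gains, and in the losses it depended on how overlap is defined. From DN to DP the order of the losses was reversed, with 28 of 121 (23.1%) at the NFAT genes and 31 of 81 (38.3%) at the Rel/NF-kB genes, against 40.5% over the genome, and 9.20% and 28.8%, against 27%, in lists of equal length. Here the NFAT genes departed from the genome and the Rel/NF-kB genes were near it. Single genes weighed in these sums. Nfkb1 gained 13 of 35 regions from DP to SP4 (37.1%, 23.2 to 53.7) and Nfatc2 only 1 of 29 (3.45%, 0.611 to 17.2), against 31%. Relb lost 8 of 13 from DN to DP (61.5%, 35.5 to 82.3, against 40.5%). On leaving DP for SP4 or SP8, Rela lost 0 of 7 and Relb 0 of 6, with intervals up to 35.4% and 39.0%. Of these examples, only the interval of Nfatc2 did not hold the genome share.

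**Figure D5:**
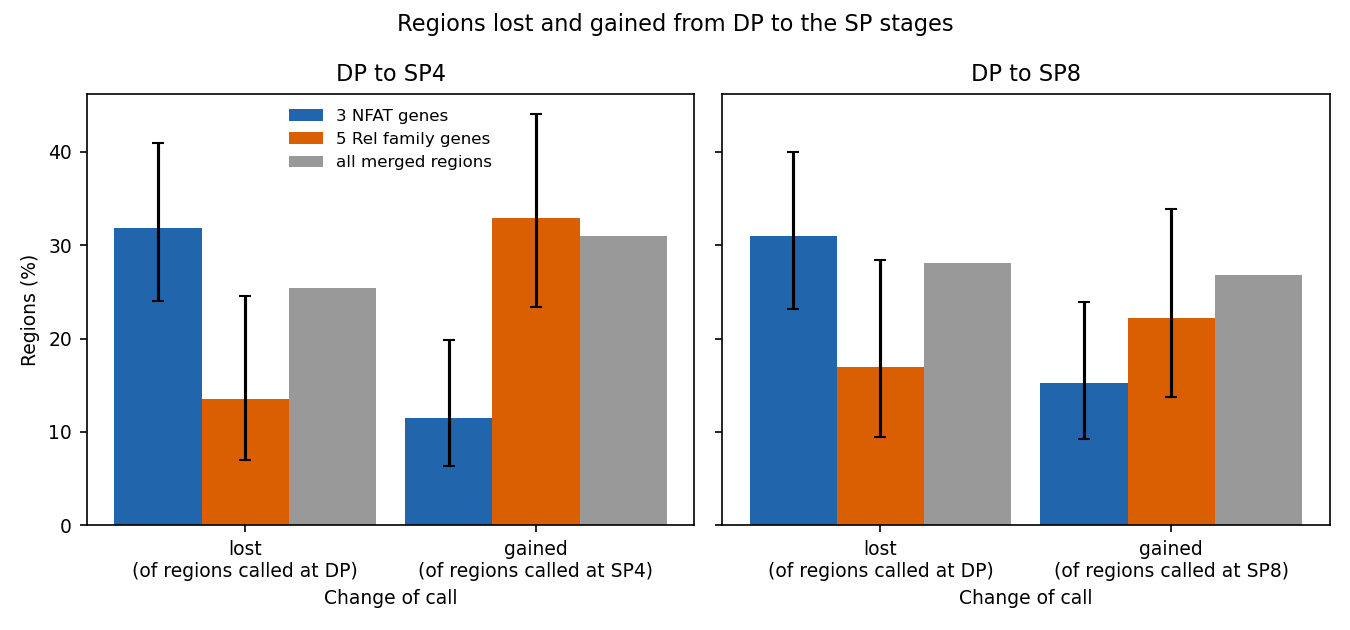
Percent of regions lost and gained (vertical, with 95% Wilson intervals) from DP to SP4 and from DP to SP8 at the 3 NFAT genes, the 5 Rel/NF-kB genes and over all regions. At the step to SP4 the NFAT genes lose 31.9% and the Rel/NF-kB genes gain 32.9%.

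To place the 9 genes in their pathways, promoter peaks were counted at 31 further genes of NF-kB and NFAT signalling, of which 30 were covered. Ikbkg lies on chromosome X, where the lists held 0 peaks. Of the 30, 28 had a promoter peak at all 4 stages, against the 55.9% of all protein-coding genes. They were 4 of 5 genes of the IkB family, 4 of 4 kinases, 4 of 4 between antigen receptor and NF-kB, 5 of 6 of feedback and adaptors, 9 of 9 of calcium and calcineurin and both further NFAT genes. The other 2, against 11% of all protein-coding genes with a promoter peak at 1 to 3 stages, both lacked a peak at DN in this promoter window. With 1000 bp on either side of the start all 30 genes had a peak at every stage, against 61.5% of all protein-coding genes. Bcl3, an IkB protein that acts in the nucleus, stood at 14.2, 0.921 and 21.8 from DP on, and the adaptor Traf3 at 26.3, 28.2 and 32.3. Some of those called throughout differed between stages, such as the calcineurin subunit gene Ppp3cb (32.6, 92.1, 76.1 and 77.2). The adaptor Traf2 (75.2, 85.8, 97.2 and 96.0) and Nfatc4 (29.3, 26.9, 75.7 and 84.4) were further examples. Others were close to even, such as Cyld (90.4, 92.9, 90.1 and 91.7) and the kinase gene Chuk (90.4, 91.5, 89.0 and 88.7). Like the promoters of the 9 genes, most promoters of these pathways were thus called at every stage, and their heights differed between genes.

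The last question was which motifs the regions held. In windows of 300 bp around the highest summit, exact matches on both strands were counted, and a match describes the sequence and not binding. The NF-kB consensus, whose ends are runs of G and C around a variable middle, was found in 27 of 278 windows (9.71%, against 6.85% of all windows of this length). It lay in 11 of 151 windows of the NFAT genes (7.28%), 13 of 106 of the Rel/NF-kB genes (12.3%) and 3 of 21 of Nfkbia (14.3%). NFAT (TGGAAA) was found in 48 windows (17.3%, against 21.2%), with 12.6% at the NFAT genes, 22.6% at the Rel/NF-kB genes and 23.8% at Nfkbia. Matches to RUNX, TCF/LEF, ETS and GATA were also found in smaller shares of the windows of the NFAT genes (8.61%, 5.96%, 1.32% and 7.95%) than of the Rel/NF-kB genes (13.2%, 9.43%, 8.49% and 16%). AP-1 and E-box matches went the other way (10.6% and 25.2% against 8.49% and 20.8%), but over whole merged regions AP-1 did not (10.6% against 13.2%). The order of the NFAT and Rel/NF-kB genes thus differed between motifs, and the shares of Nfkbia rested on only 21 windows.

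Over the 9 genes together the other motifs stayed near their genome share. These were AP-1 (TGANTCA, 8.99% against 9.89%), E-box (CAGCTG, 23.7% against 23%), RUNX (TGTGGTT, 11.2% against 12.9%), TCF/LEF (CTTTGAA, 8.27% against 7.79%), ETS (CCGGAAG, 4.32% against 3.36%) and the GATA motif (AGATAA, 10.8% against 12.7%). By stage, E-box matches lay in 14 of the 33 regions called at DP and at neither single positive stage, where all such regions of the genome had 31.3%. They lay in 1 of the 18 called at both single positive stages and not at DP (genome 13.3%). NF-kB matches numbered 1 of 33 (genome 6.55%) and 3 of 18 (genome 7.60%), and NFAT matches 4 of 33 (genome 19.2%) and 4 of 18 (genome 24.4%). In windows of 300 bp, regions that closed after DP thus had E-boxes more often than all regions, here and over the genome. Over whole merged regions, which differ in length, the genome share of such regions (26.9%) was close to that of all regions (24.1%).

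Of the 9 genes, 6 were in the RefSeq promoter table, with 10 entries, and the promoters of Nfatc1, Nfkb1 and Relb were not in it. Over the 32851 promoters of the table, 8.46% had an NF-kB match, 21.4% an NFAT match and 7.81% an AP-1 match. Nfkb2 had NF-kB matches in the entries of each of its 3 starts (3, 2 and 1), where 2 of the first 3 overlapped each other and the last was a site shared with the second entry. Rel had 2 that overlapped, and Nfkbia had 1 that overlapped an NFAT core. Rela and both entries of Nfatc3 had no match to any of the 8 motifs, and Nfatc2 had 1 NFAT match at its outer start and 0 matches at its inner start. Among the 6 genes in the table, NF-kB matches were thus found at Nfkb2, Rel and Nfkbia. Close by, an intron region of Nfkbia at 0.744 kb (chr12:55491806-55492137), chosen after its values were seen, had 3 NF-kB matches in its window. It was called at DN (7.82), SP4 (12.3) and SP8 (32.1) but not at DP.

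As a check of the thymocyte label, promoter peaks were counted at marker genes of several cell types. Of 12 thymocyte genes, 11 were called at DN and 12 at each later stage, Bcl11b being the 1 without a peak at DN, and Kit and Il2ra were called at every stage. Such calls say little about which stage a list comes from, as Cd4, Cd8a, Rag1 and Rag2 were also called at every stage. Of the B cell genes, Cd79a and Ms4a1 were called at no stage, and of the myeloid genes, Csf1r, Cd14, Mpo and Elane at none. Some genes of other cells were called at DN alone, namely Lyz2 (88.4), Itgax (15.4) and Cdh5 (55.2). Whether such cells add to the DN regions of the 9 genes was not tested.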

How the data were processed

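After trimming, the authors mapped the reads with BWA (mm10), took out duplicates and cut deeper libraries to the median depth. They then ran MACS2 on the reads of all 4 mice of a stage together. The deposited lists give for each peak a fold enrichment, which is a ratio over the local background at the summit, and a −log10 q-value, both computed by the authors. Depth per list is not in the files.

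From there, peaks of the 4 lists that share at least 1 bp were merged, and a region was assigned to a gene where it shares at least 1 bp with the gene body or 30 kb on either side (GENCODE M21). Percentiles use the highest peak of a region within the list of its stage. The genes and lists were chosen with earlier results of these data known. Regions were named by a rule set before the files were read: every promoter region of the 9 genes, for each gene the region outside promoters called at all 4 stages with the highest mean percentile, and the region called at 1 to 3 stages with the highest percentile. Apart from the regions named at the edge of the windows, any other region is marked in the text as chosen after its values were seen. Promoter sequences came from a RefSeq table (GRCm38.p6), in which 6 of the 9 genes were matched with 10 entries. Motifs were searched as exact matches on both strands.

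With 1 list per stage no test was made. Shares carry 95% Wilson intervals. Alternatives tried were a −log10 q of at least 3, equal list lengths, 10 kb on either side, the summit inside the window, summits within 100 bp, peaks up to 200 bp apart merged, percentiles by −log10 q, a difference of 30 percentile points, promoters of 1000 bp on either side, and motif windows of 200 bp or the whole region. The scripts were tested on simulated data and run with Python 3.11.15, pandas 2.3.3, numpy 2.4.6, scipy 1.17.1 and matplotlib 3.10.9.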

Additional observations from a re-analysis of the deposited data

How the results depend on the processing

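No paired analysis was possible because the peak lists pool the reads of the 4 mice, and leaving out a mouse was not possible for the same reason. A value is said to have moved where a share leaves the 95% Wilson interval of the main value, a count differs by more than 1.5 times, or a median differs at all. By this measure 29 of 286 values under alternative settings moved, and for these the cause was not tested unless given. The other values also vary, within these limits.

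With lists of equal length (104411 peaks each), the share of regions called at DN alone is 6.996% (main 15.1%), against 11.1% of all regions. From DN to DP, 17.4% are lost, 26.9% gained, 23.3% higher and 6.77% lower (main 29.5%, 16.2%, 11.0% and 12.9%), against 27%, 26.2%, 18.3% and 12.2% over the genome, so these values depend on the length of the DN list. Peaks then number 173, 195, 169 and 182 (main 239, 198, 188 and 182), and regions of SP8 alone are 5.35% (main 2.88%), against 7.05% of all regions. With summits within 100 bp, 34.2% are called at all 4 stages (main 41.7%), against 28.1% of all regions under this setting. From DP to SP8 32.8% are then lost, 29.3% at the Rel/NF-kB genes (main 25.4% and 16.9%), against 32.6% of all regions. With peaks up to 200 bp apart merged, 10.3% are gained from DN to DP, against 14.5% of all regions.

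A difference of 30 percentile points lowers the shares by construction. From DN to DP 6.45% are then higher, against 3.57% of all regions. From DP to SP4 5.11% are higher and 9.49% lower, against 7.90% and 7.12%. From DP to SP8 3.62% are higher and 10.9% lower, against 6.66% and 7.74%. From SP4 to SP8 2.84% are higher and 6.38% lower. Percentiles by −log10 q raise the promoter medians to 79.8, 82.0, 82.9 and 84.9. Promoters of 1000 bp on either side give 28 regions in place of 14, with medians of 53.4, 60.4, 68.5 and 62.8. Motif windows of 200 bp hold fewer matches by construction: NF-kB 5.76%, NFAT 11.9%, TCF/LEF 5.04% and GATA 7.19%. Over all windows of 200 bp these shares are 4.76%, 13.2%, 5.48% and 8.07%.

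No value moved by this measure with a −log10 q of at least 3, 10 kb on either side or the summit inside the window. With 10 kb, however, the genes hold 200 regions (main 278) and 171 DN peaks (main 239). The Rel/NF-kB genes then lose 21.1% from DP to SP8 (main 16.9%), against 28.1% of all regions. With promoters of 1000 bp on either side, all 30 pathway genes have a peak at every stage (main 28), against 61.5% of all protein-coding genes (main 55.9%). The share of regions called at DP and at neither single positive stage ranged from 14.8% to 19.1% at the NFAT genes and from 4.71% to 7.55% at the Rel/NF-kB genes. Over all regions it ranged from 10.3% to 12.8%.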

Other observations

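Some regions of the windows hold promoters of neighbouring genes, and the pair given here was chosen after the values were seen. The promoter of Kat5, 27.4 kb upstream of Rela (chr19:5609481-5610470), stands at 85.6, 85.7, 86.8 and 87.1, and that of Clasrp, downstream of Relb (chr7:19603922-19604771), at 86.7, 93.5, 93.8 and 90.9. Both are counted among the 278 and add to the share called at all 4 stages.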
